A study of Mus musculus with 9 samples.

Results

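The genes described here are 10 receptors and adhesion molecules that hold blood stem and progenitor cells in the marrow or let them leave it: Cxcr4, Itga4, Itga5, Itga6, Itgb1, Itgal, Itgb2, Cd44, Vcam1 and S1pr1. They were chosen by symbol, and each matched 1 row of a deposited table of 37882 genes. All 10 passed the filter on low values, which 12926 genes passed. RNA was sequenced from LSK cells of mouse marrow, the fraction with Sca1 and cKit but without Mac1, Gr1, B220, CD3e or Ter119, in which blood stem and progenitor cells lie. The 9 mice were 6 to 8 weeks old, on a B6/129 background. All of them carried rtTA, the doxycycline-dependent activator, in Rosa26, and all drank water with 2 mg/ml doxycycline and 10 mg/ml sucrose. The 3 rtTA control mice had no histone transgene named in their labels. In Col1a1 the 3 K9M mice had a histone H3 transgene with methionine in place of lysine 9, and the 3 K36M mice one with methionine in place of lysine 36. The series title calls these histones H3.3 and the strain labels H3. A transgene of unmutated histone was in none of the groups, so mutation and transgene cannot be told apart against rtTA. Each library came from a separate mouse, and the duration of doxycycline is not given in the sources used here.

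Values are RPKM, reads scaled to transcript length and to library size, so levels can be compared between genes. Where 3 values are given for a group, they are libraries 1, 2 and 3 in that order. Steps between the lowest values put library depth at about 15860000 to 50320000 reads. The sort markers were present in all 9 libraries, Kit at 53.3 to 102 RPKM and Ly6a, which encodes Sca1, at 119 to 292 RPKM. Control library rtTA 3 stood apart in mature granulocyte markers, whose 12 genes summed to 6429 RPKM there and to 187 to 1396 RPKM in the other 8 libraries. Fold changes of Itgal, Itgb2 and Vcam1 against rtTA, and the ratio of Itgal to Itgb2, are given with and without it. In sorted bulk cells, fewer cells of a type and less RNA per cell cannot be told apart.

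Retention in marrow rests on several receptor systems. CXCR4 is the receptor for CXCL12, a chemokine made by marrow stroma, and its blockade releases stem cells into blood. Integrins are pairs of an alpha and a beta chain: alpha 4 with beta 1 (VLA-4) binds VCAM1 and fibronectin, alpha 5 with beta 1 binds fibronectin, alpha 6 with beta 1 binds laminin, and alpha L with beta 2 (LFA-1) binds ICAM proteins. CD44 binds hyaluronan. S1PR1 senses sphingosine 1-phosphate, which is high in blood, and draws cells out of tissue.

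The RefSeq promoter table (GRCm38.p6, the mm10 assembly) held 5 of the 10 genes. The 250 bases upstream of the start are shown for Cxcr4, Itga4 and Cd44, since these 3 and S1pr1 were the members with an unadjusted p under 0.05 in some comparison. Sequences run 5′ to 3′ on the gene's strand, and capitals mark the GC box, GGGCGG or its reverse complement CCGCCC, searched on both strands.
Cxcr4, chr1:128592300-128592549, minus strand: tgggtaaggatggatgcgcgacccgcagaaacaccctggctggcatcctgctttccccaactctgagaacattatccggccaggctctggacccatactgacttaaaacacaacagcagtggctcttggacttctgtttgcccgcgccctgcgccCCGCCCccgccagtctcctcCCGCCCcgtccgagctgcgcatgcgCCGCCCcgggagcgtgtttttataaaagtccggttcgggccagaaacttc
Itga4, chr2:79255176-79255425, plus strand: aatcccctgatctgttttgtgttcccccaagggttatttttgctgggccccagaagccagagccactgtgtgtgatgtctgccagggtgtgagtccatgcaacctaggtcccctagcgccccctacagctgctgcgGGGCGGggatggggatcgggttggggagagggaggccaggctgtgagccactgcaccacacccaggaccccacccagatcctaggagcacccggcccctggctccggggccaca
Cd44, chr2:102901666-102901915, minus strand: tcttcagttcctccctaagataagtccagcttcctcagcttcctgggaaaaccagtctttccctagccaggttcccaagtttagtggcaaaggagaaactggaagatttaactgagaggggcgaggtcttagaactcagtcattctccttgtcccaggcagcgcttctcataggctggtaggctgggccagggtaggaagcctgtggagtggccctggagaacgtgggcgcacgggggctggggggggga
The Cxcr4 window held 3 GC boxes, that of Itga4 held 1 and that of Cd44 held 0, while 32.7% of 32851 promoter windows of the same length held at least 1. CpG dinucleotides numbered 19 in the Cxcr4 window, 6 in that of Itga4 and 5 in that of Cd44, against a median of 6 over all windows. CACCC or its reverse GGGTG, the core bound by Krueppel-like factors, occurred 1 time in the Cxcr4 window, 4 times in that of Itga4 and 0 times in that of Cd44, and in 52.0% of all windows. These matches describe the sequence only.

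In rtTA control cells the 10 transcripts spanned a wide range of levels. Itgb1, the common beta chain (chromosome 8, 128685654 to 128733200), was highest at 72.5 ± 8.79 RPKM (SD, n = 3), and Cxcr4 (chromosome 1, 128588199 to 128592293) followed at 49.1 ± 11.9 RPKM. Itgal (27.8 ± 6.78 RPKM), Cd44 (26.6 ± 3.70 RPKM), Itgb2 (22.5 ± 12.7 RPKM) and Itga4 (17.5 ± 3.36 RPKM) came next, and each of these overlapped its neighbour in range. Itga6 at 13.4 ± 1.48 RPKM, Itga5 at 9.75 ± 1.42 RPKM, S1pr1 at 6.10 ± 0.388 RPKM and Vcam1 at 1.86 ± 1.93 RPKM followed without overlap. The order was the same in K9M, where Cxcr4 overlapped Itgal and Cd44 overlapped Itgb2. In K36M it differed only in that Itga4 lay above Itgb2, and all neighbours overlapped except Cxcr4 and Itgal, Itga5 and S1pr1, and S1pr1 and Vcam1. Mean levels placed Itgb1 at percentile 93.3 and Cxcr4 at percentile 89.7 of tested genes over the 9 libraries, S1pr1 at 34.3 and Vcam1 at 9.21.

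**Figure D1:**
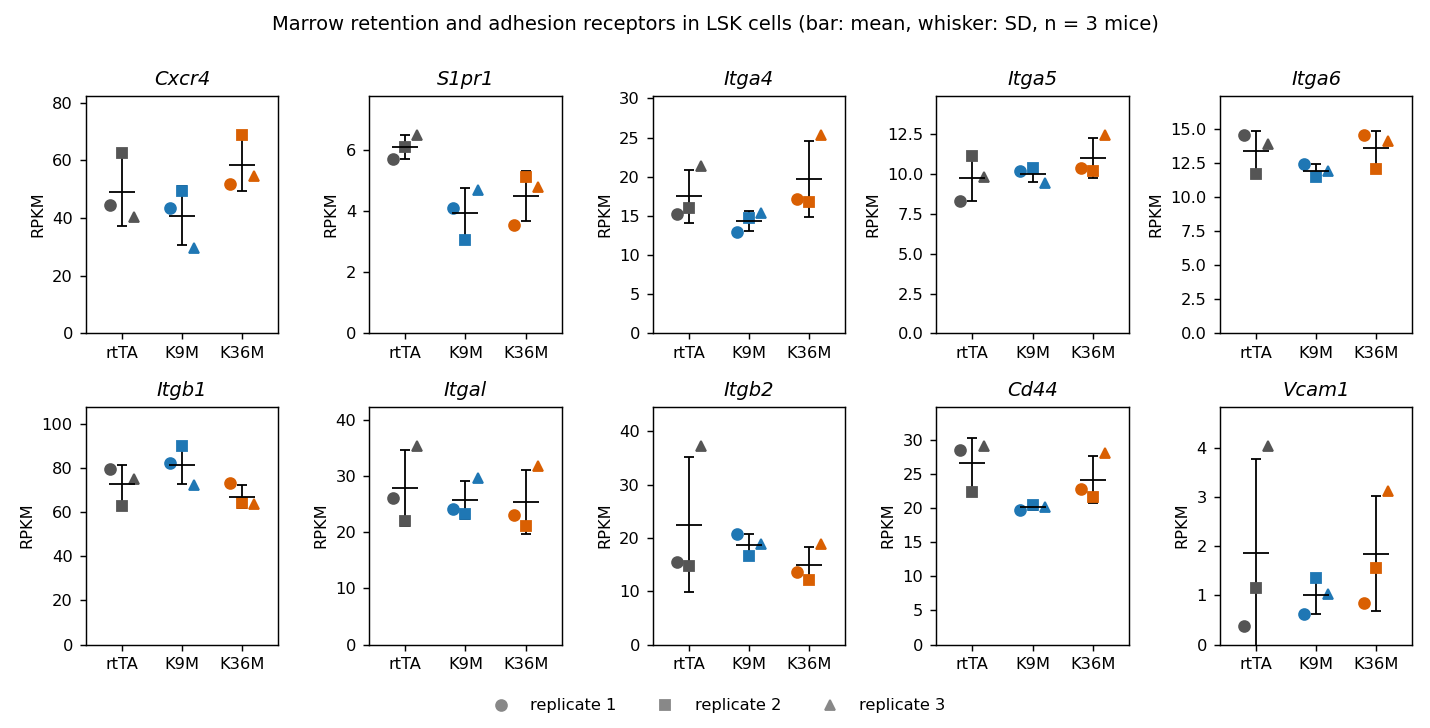
RPKM of each receptor (vertical axis, from 0) in the 9 libraries, by group, with the mean as a bar and the SD as a whisker (n = 3 mice; the Vcam1 whisker in rtTA is cut at 0). S1pr1 is lower in all 6 mutant libraries than in the 3 rtTA libraries, and Itgb2 and Vcam1 are highest in rtTA 3.

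The comparisons asked whether these receptors differed between mice with either mutant histone and rtTA mice, and between the mutants. None of the 10 was called by limma at an adjusted p under 0.05 in K9M against rtTA, where 0.116% of tested genes were called. None was called in K36M against rtTA either, where the share was 1.5% (194 genes, and 301 with the replicate number as a block), nor in K36M against K9M, where it was 2.52%. The smallest limma adjusted p of a member was 0.48, 0.244 and 0.237 in these comparisons. At an unadjusted p under 0.05 there were 2 lower members in K9M against rtTA, S1pr1 and Cd44 (3.11% of all tested genes were lower by this rule). In K36M against rtTA there was 1 lower, S1pr1 (8.86%), and in K36M against K9M there were 2 higher, Cxcr4 and Itga4 (9.31%). Both comparisons with rtTA share the control libraries and are not independent.

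Median log2 fold changes of the 10 members were -0.21 in K9M against rtTA, -0.04 in K36M against rtTA and 0.17 in K36M against K9M, beside 0.01, 0.02 and 0.01 over all tested genes. Of the members, 8 were negative in K9M against rtTA, 5 in K36M against rtTA and 3 in K36M against K9M. The 95% confidence interval lay within a 2-fold change either way for 9 of 10 members in K9M against rtTA, 8 in K36M against rtTA and 7 in K36M against K9M. Vcam1 was outside this limit in each comparison, Itgb2 in both K36M comparisons and Cxcr4 in K36M against K9M.

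**Figure D2:**
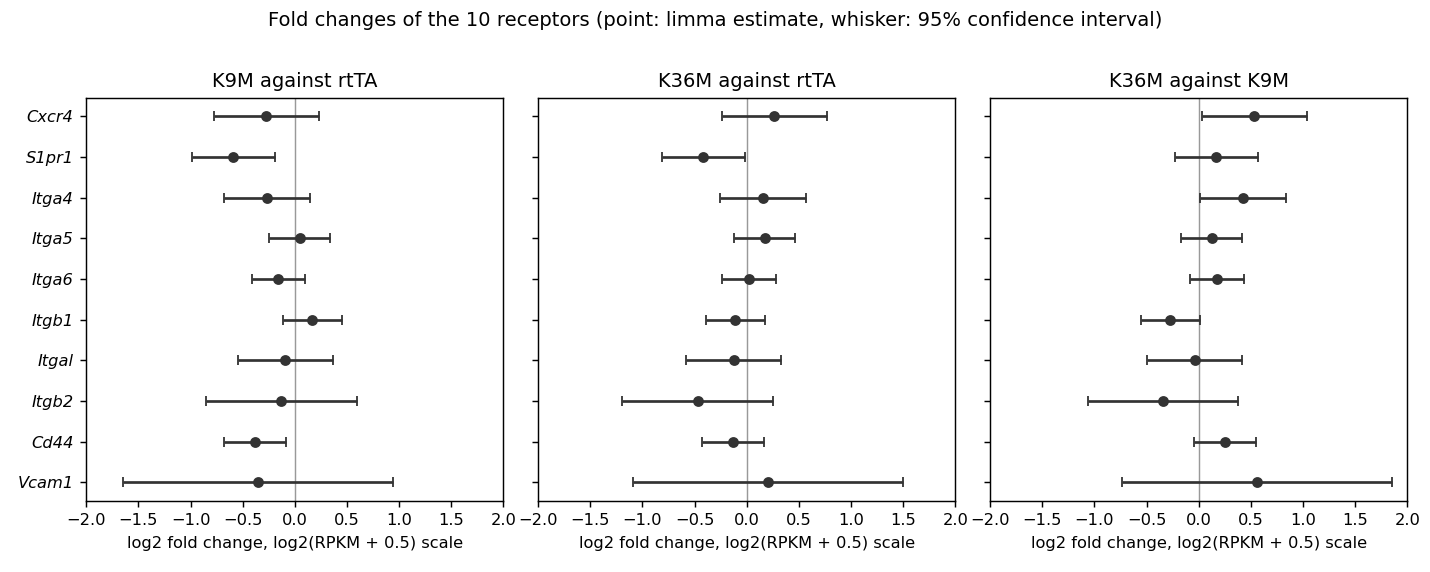
Log2 fold change of each receptor (horizontal axis, log2(RPKM + 0.5) scale) in the 3 comparisons, as the limma estimate with its 95% confidence interval. S1pr1 lies below 0 against rtTA in both mutants, and the Vcam1 interval is the widest in each comparison.

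Cxcr4, the retention receptor, measured 44.4, 62.6 and 40.2 RPKM in rtTA mice, 43.4, 49.4 and 29.4 RPKM in K9M mice and 51.6, 68.7 and 54.7 RPKM in K36M mice. Each rtTA library lay inside the span of the mutants, while all K36M libraries lay above all K9M libraries. Higher in K36M than K9M without overlap were 14.5% of tested genes, and 3 of the 10 members: Cxcr4, Itga4 and Cd44. The Cxcr4 difference was 0.53 on the log2 scale (SE 0.22, 95% interval 0.03 to 1.04, limma adjusted p = 0.237), and adjusted p over the alternatives ran from 0.0578 to 0.564. Against rtTA the values were -0.27 in K9M (interval -0.78 to 0.23, limma adjusted p = 0.834) and 0.26 in K36M (interval -0.24 to 0.77, limma adjusted p = 0.575). 

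S1pr1, the egress receptor (chromosome 3, 115710433 to 115715072), measured 5.71, 6.11 and 6.48 RPKM in rtTA mice, 4.10, 3.04 and 4.68 RPKM in K9M mice and 3.55, 5.10 and 4.79 RPKM in K36M mice. All 6 mutant libraries were below all 3 controls, and the mutants overlapped each other. Lower without overlap were 5.43% of tested genes in K9M against rtTA, with S1pr1 and Cd44 among them, and 10.6% in K36M against rtTA, with S1pr1 the 1 member. The log2 difference was -0.59 in K9M (SE 0.18, 95% interval -0.99 to -0.19, limma adjusted p = 0.48) and -0.42 in K36M (interval -0.82 to -0.02, limma adjusted p = 0.244), so neither passed over all genes. S1pr1 was among the steadier genes of the control group, with an SD of 0.09 on the log2 scale against a median of 0.22 over tested genes. In the mutants S1pr1 was more variable than the median gene. Its SD was 0.28 in K9M against a median of 0.14, and 0.25 in K36M against 0.19.

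Some marker sums were also lower in the mutants. The 10 B lineage markers summed to 40.1 to 55.8 RPKM in controls, against 20.9 to 25.9 RPKM with K9M and 31.9 to 38.3 RPKM with K36M. Of the 7 tested, 0 were called in either mutant, and 0 of the 10 were at 0 in all 9 libraries. Lower than rtTA without overlap were 8 of the 10 in K9M and 5 in K36M, beside 5.43% and 10.6% of tested genes. None was higher without overlap. Cd79b did not fall in K36M, at 16.3 to 19.5 RPKM beside 15.6 to 18.6 RPKM in controls. The sum of 12 T and NK markers went the other way. They summed to 109 to 116 RPKM in controls, 142 to 155 RPKM with K9M and 117 to 161 RPKM with K36M. Most of this was Nkg7, at 89.3 to 94.3 RPKM in controls, 122 to 129 RPKM with K9M and 98.3 to 144 RPKM with K36M. Of the 12, 1 was lower and 2 were higher without overlap in K9M against rtTA. In K36M against rtTA 4 were lower and 2 higher without overlap. Immediate early and heat shock transcripts, a list of 22 induced by stimulation and handling, summed to 2044 to 2210 RPKM in controls, against 1036 to 1189 RPKM with K9M and 701 to 1103 RPKM with K36M. The part of any of these lists in the S1pr1 values was not tested. By Pearson correlation of log2 levels over the 9 libraries, the genes most like S1pr1 were Stx5a (0.959), Il7r (0.954), Kat5 (0.941), Blnk (0.936) and Slc25a45 (0.935). Il7r encodes the interleukin 7 receptor of lymphoid progenitors and Blnk a B cell receptor adaptor. All libraries enter each value together with the group difference, and 26 of the tested genes had a correlation over 0.9.

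Among the beta 1 integrins, Itga4 (chromosome 2, 79255426 to 79333123) measured 15.2, 15.95 and 21.4 RPKM in rtTA mice, 12.9, 14.7 and 15.4 RPKM in K9M mice and 17.1, 16.8 and 25.3 RPKM in K36M mice. K36M 3 and rtTA 3 were highest, and the K36M libraries were all above the K9M libraries. K36M against K9M gave 0.43 (SE 0.18, 95% interval 0.01 to 0.84, limma adjusted p = 0.251). Itga4 shares 1124 exonic bases (8.04% of its exon length) with Cerkl on the other strand, which stood between 0.376 and 0.629 RPKM. Itga4 is the alpha chain of VLA-4 and also pairs with the beta 7 chain, Itgb7, whose mean was 19.6 ± 3.98 RPKM for controls, 14.9 ± 4.77 RPKM for K9M and 27.2 ± 7.07 RPKM for K36M (SD, n = 3 each).

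Itga5 and Itga6 varied little. Itga5, the fibronectin receptor chain, lay between 8.30 and 12.5 RPKM over the 9 libraries, and Itga6, the laminin receptor chain that is also used to mark stem cells, between 11.4 and 14.5 RPKM. Their 6 log2 fold changes ran from -0.16 to 0.18, and the groups overlapped in every comparison. Against rtTA the 95% interval for Itga6 was -0.42 to 0.10 in K9M and -0.24 to 0.28 in K36M, and for Itga5 it was -0.25 to 0.34 and -0.12 to 0.46.

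Itgb1 measured 79.7, 62.7 and 75.2 RPKM in rtTA mice, 82.05, 89.7 and 72.2 RPKM in K9M mice and 73.2, 64.02 and 63.9 RPKM in K36M mice. Its log2 difference of K36M from K9M was negative, unlike those of the 3 alpha chains, at -0.27 (95% interval -0.56 to 0.01, limma adjusted p = 0.282), with groups that overlapped at their edge. Against rtTA it was 0.17 in K9M and -0.11 in K36M, neither called by limma (adjusted p = 0.815 and 0.692). Itgb1 exceeded the sum of Itga4, Itga5 and Itga6 in all 9 libraries, by 1.62 to 2.09 times in controls, 1.97 to 2.46 times with K9M and 1.23 to 1.74 times with K36M.

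Within libraries, the log2 ratio of Itga4 to Itgb1 was -2.35, -1.94 and -1.79 in rtTA mice, -2.62, -2.57 and -2.20 in K9M mice and -2.07, -1.90 and -1.32 in K36M mice. K36M and K9M did not overlap, with a difference of 0.70 (two-sided exact permutation p = 0.1, the smallest that 3 against 3 allows). K9M against rtTA gave -0.43 (exact permutation p = 0.2) and K36M against rtTA 0.27 (exact permutation p = 0.5), and both overlapped. The K36M value was 0.046 without K36M 3 and 0.11 without rtTA 1. Same-numbered K36M and rtTA libraries deviated together across genes, and the ratio was higher in K36M in 3 of 3 such pairs, by 0.29, 0.043 and 0.47 (two-sided exact sign-flip permutation p = 0.25, the smallest that 3 pairs allow). Of the summed RPKM of the 3 alpha chains, Itga4 made up 40.0% to 47.4% in controls, 36.4% to 41.9% with K9M and 40.7% to 48.8% with K36M.

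**Figure D3:**
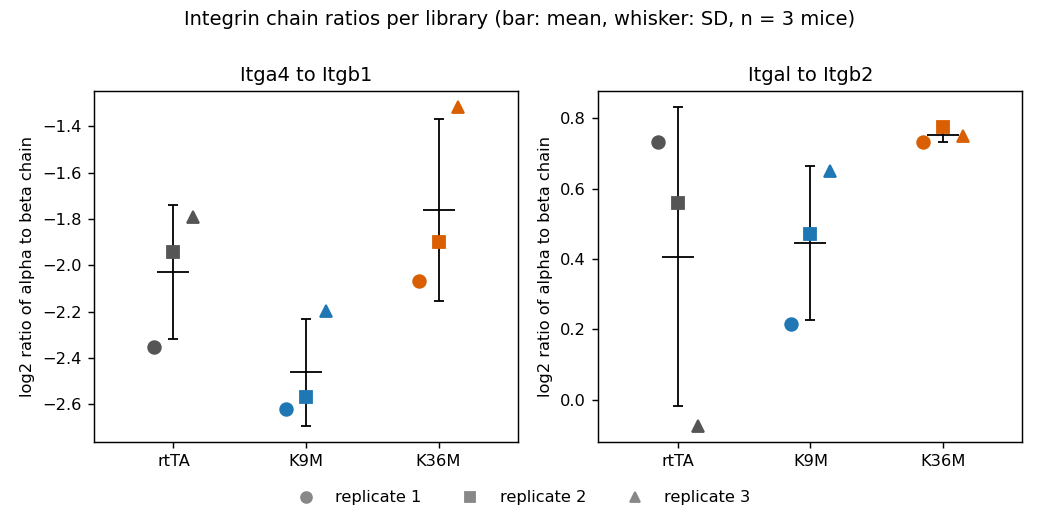
Log2 ratio of the alpha to the beta chain of 2 integrins (vertical axis) in each library, by group, with mean and SD (n = 3 mice). For Itga4 to Itgb1 the K36M libraries lie between -2.07 and -1.32, above K9M, and for Itgal to Itgb2 rtTA 3 is lowest at -0.07.

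LFA-1 is made of Itgal (chromosome 7, 127296260 to 127335138) and Itgb2 (chromosome 10, 77530252 to 77565708). Itgal measured 26.1, 22.1 and 35.3 RPKM in rtTA mice, 24.2, 23.3 and 29.7 RPKM in K9M mice and 23.03, 21.2 and 31.9 RPKM in K36M mice. The groups overlapped, and Itgal was not called in any comparison (log2 fold changes -0.13 to -0.04, limma adjusted p = 0.783 to 0.947). Without rtTA 3 the Itgal value against rtTA was 0.092 in K9M and 0.056 in K36M. Itgb2 measured 15.5, 14.8 and 37.1 RPKM in rtTA mice, 20.8, 16.7 and 18.8 RPKM in K9M mice and 13.7, 12.2 and 18.8 RPKM in K36M mice. Itgb2 in rtTA 3 was above each other library. The log2 fold change of Itgb2 was -0.13 in K9M against rtTA (95% interval -0.85 to 0.59, limma adjusted p = 0.952) and 0.29 without rtTA 3. In K36M against rtTA it was -0.47 (interval -1.19 to 0.25, limma adjusted p = 0.466) and -0.05 without rtTA 3, so most of that difference rested on this library.

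Itgb2 also pairs with Itgam, the Mac1 antigen that the sort removed. Itgam measured 7.58, 4.21 and 15.4 RPKM in rtTA mice. It was 3.31, 2.56 and 4.21 RPKM in K9M mice and 7.26, 4.68 and 10.6 RPKM in K36M mice. In K9M it was lower than in rtTA without overlap (-1.15, limma adjusted p = 0.605). K36M overlapped rtTA and was higher than K9M without overlap (1.01, limma adjusted p = 0.241). In rtTA 3, 11 of the 12 mature granulocyte markers and 14 of the 19 monocyte, macrophage and dendritic markers had their highest value of the 9 libraries. The granulocyte markers summed to 728 to 6429 RPKM in controls, 455 to 1096 RPKM with K9M and 187 to 430 RPKM with K36M, and 0 of them were at 0 in all libraries of any group. Against rtTA, 0 of these 12 were lower without overlap in K9M and 8 in K36M, with 0 higher in either (5.43% and 10.6% of tested genes were lower). In K36M against K9M 6 were lower and 1 was higher without overlap. The part of the granulocyte markers in the Itgb2 values was not tested. The log2 ratio of Itgal to Itgb2 was 0.73, 0.56 and -0.07 in rtTA mice, 0.21, 0.47 and 0.65 in K9M mice and 0.73, 0.77 and 0.75 in K36M mice. K36M lay above K9M without overlap by 0.31 (two-sided exact permutation p = 0.1, the smallest possible), and by 0.19 without K9M 1. Against rtTA, K9M differed by 0.04 (exact permutation p = 0.9) and by -0.20 without rtTA 3. K36M differed by 0.35 (exact permutation p = 0.2) and by 0.11 without rtTA 3, and its same-numbered pairs differed by -0.00011, 0.22 and 0.82.

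**Figure D4:**
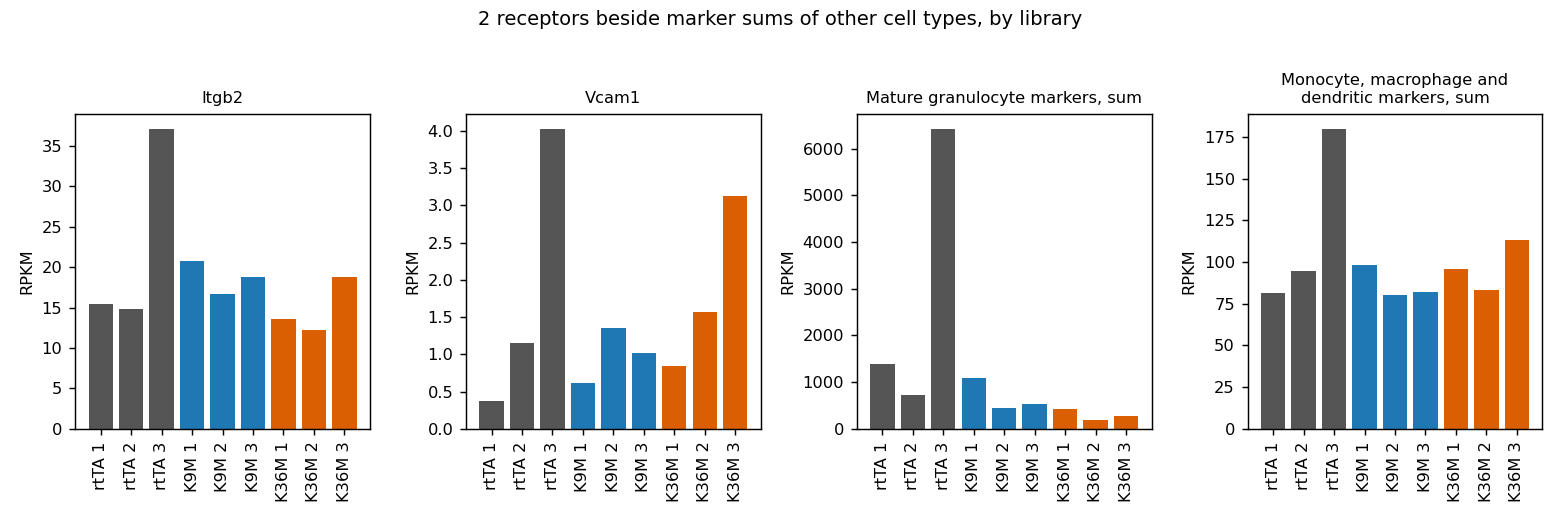
RPKM of Itgb2 and Vcam1, and the summed RPKM of 12 mature granulocyte markers and 19 monocyte, macrophage and dendritic markers (vertical axes, from 0), in each library. All 4 are highest in rtTA 3, and K36M 3 is second for Vcam1 and for the monocyte, macrophage and dendritic sum.

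Cd44, the hyaluronan receptor (chromosome 2, 102811141 to 102901665), measured 28.5, 22.4 and 29.05 RPKM in rtTA mice and 22.8, 21.7 and 28.04 RPKM in K36M mice. The K9M libraries were close together at 19.7, 20.5 and 20.2 RPKM, below all libraries of both other groups. The log2 difference from rtTA was -0.39 in K9M (SE 0.13, 95% interval -0.68 to -0.09, limma adjusted p = 0.551) and -0.14 in K36M (interval -0.43 to 0.16, limma adjusted p = 0.629). K36M against K9M gave 0.25 (interval -0.05 to 0.55, limma adjusted p = 0.353).

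Vcam1, the VLA-4 ligand that stroma, marrow macrophages and some stem cells carry (chromosome 3, 116109949 to 116129688), was the lowest and most variable member. It measured 0.373, 1.16 and 4.03 RPKM in rtTA mice, a spread of 10.8-fold within the control group, 0.621, 1.36 and 1.02 RPKM in K9M mice and 0.848, 1.56 and 3.13 RPKM in K36M mice. These values rest on between about 55 and 1397 reads. Its SD in rtTA, 1.198 on the log2 scale, was at percentile 97.8 of tested genes. The log2 fold change was -0.35 in K9M against rtTA (95% interval -1.65 to 0.94, limma adjusted p = 0.92) and 0.21 in K36M against rtTA (interval -1.09 to 1.502, limma adjusted p = 0.881), and without rtTA 3 these values were 0.29 and 0.85. Both intervals reached past a 2-fold fall, and the K36M interval also past a 2-fold rise.

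Beside Vcam1, the 19 monocyte, macrophage and dendritic markers summed to 81.4 to 180 RPKM in controls, 80.4 to 98.4 RPKM with K9M and 83.5 to 113 RPKM with K36M, and 0 of them were at 0 in all libraries. The macrophage complement gene C1qa stood at 3.47 RPKM in rtTA 3 and at 0.290 to 1.67 RPKM elsewhere. Csf1r, the receptor of the monocyte growth factor, was highest in K36M 3 at 23.6 RPKM, where C1qa was at 0.535 RPKM. Of the 19 markers, 14 had their highest value in rtTA 3 and 5 in K36M 3. Of the 12 stroma and endothelium markers, 3 were above the filter: Pecam1 at 16.5 to 34.1 RPKM, Pdgfrb at 12.04 to 18.3 RPKM and Emcn at 2.27 to 4.71 RPKM over the 9 libraries. The other 9, with the stromal genes Lepr, Cxcl12 and Col1a1 and the endothelial genes Cdh5 and Kdr among them, were at 0.585 RPKM or less in every library. The sum of all 12 was 34.1 to 46.3 RPKM in controls, 33.5 to 39.8 RPKM with K9M and 43.7 to 55.6 RPKM with K36M, nearly all of it from those 3. Their part in the Vcam1 values was not tested.

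Other genes of these pathways were read from 7 lists with 160 entries, of which 119 were tested (Icam1 and Icam2 stand in both the adhesion and the ligand list). In K9M against rtTA 0 of the 119 were called by limma, beside 0.116% of all tested genes, and 3 were called without rtTA 1. In K36M against rtTA 2 were called higher and 3 lower, 4.20% beside 1.5%, and 0 without rtTA 3 or rtTA 2. In K36M against K9M 2 were called higher and 2 lower, 3.36% beside 2.52%. At an unadjusted p under 0.05 by limma, 4 were higher and 8 lower in K9M against rtTA, 10.1% of the 119 beside 7.11% of all tested genes. In K36M against rtTA 13 were higher and 22 lower, 29.4% beside 19.1%, and in K36M against K9M 20 were higher and 15 lower, 29.4% beside 18.8%. Each of these 9 calls was lost without at least 4 single libraries, among them K36M 1 and K36M 3, with limma adjusted p up to 0.18. With no filter on low values, which tests more genes, the calls of Rgs1, Klf2, Selp, Cx3cr1, Esam, Cd81 and, against rtTA, Ncam1 ended as well (limma adjusted p 0.0625 to 0.0978).

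Control of CXCR4 signalling gave 2 falls among 20 tested genes in K36M against rtTA, both of them regulators that shorten G protein signals, with a list median of -0.01. Rgs1 measured 11.4, 27.1 and 19.3 RPKM in rtTA mice and 3.17, 8.21 and 4.18 RPKM in K36M mice (log2 fold change -1.81, SE 0.35, limma adjusted p = 0.0451). Rgs2 measured 35.9, 48.1 and 53.2 RPKM in rtTA mice and 20.5, 20.8 and 24.2 RPKM in K36M mice (-1.03, limma adjusted p = 0.02). The immediate early and heat shock sum given above was lower in the same libraries, and its part in the Rgs1 and Rgs2 values was not tested. In K9M they were 6.95 ± 0.547 and 22.9 ± 2.40 RPKM (SD, n = 3), and neither was called by limma (adjusted p = 0.391 and 0.0821). Rgs2 in K9M was called without rtTA 1 (limma adjusted p = 0.0247) and with the replicate block (limma adjusted p = 0.0316). In K36M the Rgs1 call also ended without rtTA 2, rtTA 3 or any K9M library and the Rgs2 call without rtTA 2 or rtTA 3. Both ended with only the 2 groups compared (limma adjusted p = 0.142 and 0.0806).

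Around S1PR1, 1 of 13 tested genes fell in K36M against rtTA, and the list median was -0.16. Klf2, a transcription factor known to activate S1pr1 in lymphocytes, measured 9.69, 25.3 and 23.2 RPKM in rtTA mice, 3.13, 5.43 and 3.14 RPKM in K9M mice and 3.12, 5.38 and 2.43 RPKM in K36M mice. All mutant libraries were below all controls, with -2.21 in K36M (SE 0.39, limma adjusted p = 0.0319) and -2.10 in K9M, which was not called (limma adjusted p = 0.119) but was without rtTA 1 (limma adjusted p = 0.0281). The K36M call ended without rtTA 2, rtTA 3, K9M 1 or K9M 3 and with only the 2 groups compared (limma adjusted p = 0.103). Cd69, whose protein removes S1PR1 from the surface, averaged 37.99 ± 14.98 RPKM for controls, 17.7 ± 1.45 RPKM for K9M and 16.1 ± 2.94 RPKM for K36M (SD, n = 3 each) and was not called by limma (adjusted p = 0.467 and 0.092), though it was in K9M without rtTA 1 (limma adjusted p = 0.0247). Klf2 belongs also to the immediate early list, of which 13 genes were called lower in K36M against rtTA and 1 in K9M against rtTA; the part of that list in these values was not tested. S1pr2, a receptor of the same ligand, was 0.63 higher in K36M than in K9M and was not called (limma adjusted p = 0.0631), though it was without K36M 2 (limma adjusted p = 0.0466).

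Of 27 tested other adhesion molecules, 2 rose in K36M against rtTA, and the list median was -0.16. Selp, which encodes P-selectin, measured 1.51, 0.665 and 1.54 RPKM in rtTA mice and 7.56, 4.18 and 7.12 RPKM in K36M mice (1.97, SE 0.30, limma adjusted p = 0.022), with K9M between them at 2.65 ± 0.765 RPKM (SD, n = 3). Ncam1, a neural adhesion molecule, measured 0.915, 0.723 and 1.28 RPKM in rtTA mice and 4.67, 2.98 and 8.66 RPKM in K36M mice (1.91, limma adjusted p = 0.0289). Outside K36M, Ncam1 reached 1 RPKM only in rtTA 3, so it passed the filter on low values only through the K36M libraries where it was high. The Selp call also ended without rtTA 2 or rtTA 3 and the Ncam1 call without each rtTA and K9M library, and both with only the 2 groups compared (limma adjusted p = 0.0799 and 0.108). In K36M against K9M, Ncam1 was higher (2.29, limma adjusted p = 0.0176), and Esam, a junction protein of endothelium and stem cells (-0.94, limma adjusted p = 0.03), and the tetraspanin Cd81 (-0.45, limma adjusted p = 0.0485) were lower. These 3 calls also ended without each K9M library, and that of Cd81 also without rtTA 2 or rtTA 3, with only the 2 groups compared (limma adjusted p = 0.069), with median ratio rescaling and with a pseudocount of 0.1. Markers of long-term stem cells stood beside these: the 10 genes summed to 96.1 to 109 RPKM in controls, 97.4 to 107.7 RPKM with K9M and 58.7 to 100.8 RPKM with K36M. Of the 9 tested, 0 were called in K36M against K9M. Of all 10, 4 were lower without overlap, among them Hoxb5, which was below the filter, and 1 was higher. Lower without overlap were 13.4% of all tested genes and 0 of the 10 receptors. Hlf measured 32.1, 29.2 and 34.3 RPKM in K9M mice and 14.7, 26.8 and 20.3 RPKM in K36M mice. The part of these markers in the Esam and Cd81 values was not tested.

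Of 14 tested trafficking receptors, 1 was called, Cx3cr1, the fractalkine receptor of monocytes, which measured 0.666, 0.492 and 0.993 RPKM in K9M mice and 5.40, 2.68 and 7.58 RPKM in K36M mice (2.15, SE 0.40, limma adjusted p = 0.0328). The Cx3cr1 call also ended without each K9M library. Outside K36M, Cx3cr1 reached 1 RPKM only in rtTA 1 and rtTA 3, so it passed the filter on low values only through the K36M libraries where it was high. Of the 15 tested monocyte, macrophage and dendritic markers, 2 were called higher in K36M than in K9M, Cx3cr1 itself among them, and their part in the Cx3cr1 values was not tested. Against rtTA 0 of the 14 were called in either mutant by limma, with 2 at an unadjusted p under 0.05 in K9M and 4 in K36M.

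Other integrin chains had 0 of 10 tested genes called in each comparison, with 1 unadjusted p under 0.05 in K9M against rtTA, 2 in K36M against rtTA and 4 in K36M against K9M. Itga9, an alpha chain that pairs with beta 1, came nearest at -1.11 in K36M against rtTA (limma adjusted p = 0.0618, and 0.035 without K36M 2), from 2.42 ± 0.464 RPKM in rtTA to 0.868 ± 0.324 RPKM in K36M (SD, n = 3). Proteins that activate integrins and link them to actin had 0 of 28 called in each comparison, with 1, 6 and 4 at an unadjusted p under 0.05 and medians of 0.03, 0.06 and 0.09. Niche ligands of the receptors had 0 of 7 called in each comparison, with 1, 2 and 2 at an unadjusted p under 0.05. Cxcl12, which stromal cells make, was below the filter at a mean of 0.248 RPKM over the 9 libraries.

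**Figure D5:**
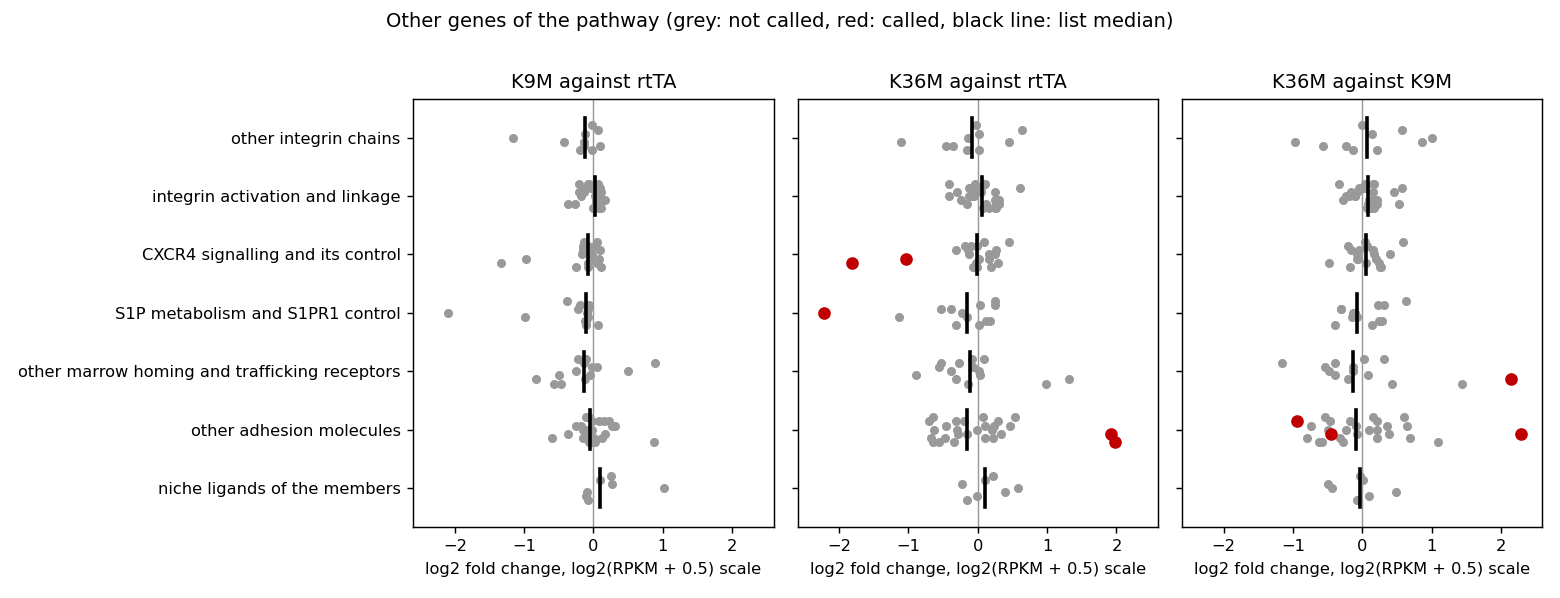
Log2 fold changes (horizontal axis, log2(RPKM + 0.5) scale) of the 119 tested genes in 7 lists, one point per gene, red where limma called the gene, with the list median as a black line. List medians lie between -0.16 and 0.10, and the called genes are Rgs1, Rgs2, Klf2, Selp and Ncam1 in K36M against rtTA and Cx3cr1, Ncam1, Esam and Cd81 in K36M against K9M.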

How the data were processed

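The authors deposited RPKM values for 37882 genes in 9 libraries, 1 column per mouse. The submitters' processing notes name CASAVA 1.7, STAR and mm10. How reads were counted, and whether by strand, is not given in the sources used here. The labels name polyA RNA beside a total RNA kit. Groups came from the sample titles. Gene coordinates and exon lengths are from GENCODE M21 on mm10, to which 37607 identifiers matched. Depth was read from the RPKM steps: with M21 lengths, 50.6% to 52.7% of values worth up to 20 reads were whole within 0.02 reads, so read numbers are approximate and no count test was run.

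Values were tested as log2(RPKM + 0.5) for genes that reached RPKM 1 in 3 or more libraries, with limma 3.58.1 in R 4.3.3, group means over 9 libraries, a mean-variance trend, 6 residual and 3.135 prior degrees of freedom, two-sided, Benjamini-Hochberg adjusted over 12926 genes and called under 0.05. This scale understates changes of low genes. The fit was tested on simulated data. Chain ratios were compared by exact permutation with scipy 1.17.1. Same-numbered libraries of K36M and rtTA deviated together (correlations 0.369 to 0.414, other pairs -0.377 to 0.0129). This pairing comes from the data, and a blocked fit is an alternative. For K9M and rtTA the same-numbered correlations were 0.017 to 0.162 (other pairs -0.124 to 0.063). For K36M and K9M they were -0.171 to 0.074 (other pairs -0.153 to 0.105). In both, the ranges overlapped, so a pairing of K9M libraries by number was not shown. The members and lists were chosen with earlier results of these data known. All 10 members are named, and in each list the called genes, otherwise up to 2 with the smallest p; the genes most like the member with the smallest p were named by correlation. Cxcl12, C1qa, Csf1r, Hlf, Nkg7 and the stroma and endothelium markers were named after their values were seen. Alternatives changed the pseudocount, filter, scaling, groups fitted and replicate block, and left out each library.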

Additional observations from a re-analysis of the deposited data

How the results depend on the processing

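No member was called under any of 16 alternatives (limma; smallest adjusted p 0.0578, Cxcr4 in K36M against K9M with the replicate block), and the replicate block changed no member's call. Of 480 member fold changes under alternatives, 464 kept their direction. The 16 that reversed were not called in either fit, and the cause was not tested. Each range is that with 1 library left out. In K9M against rtTA, Itga5 ranged from -0.059 (without rtTA 1) to 0.14, and Itgal from -0.24 to 0.092, Itgb2 from -0.36 to 0.29 and Vcam1 from -0.90 to 0.29, each positive without rtTA 3. In K36M against rtTA, Itga6 ranged from -0.069 to 0.098, with -0.069 without rtTA 2, -0.029 without K36M 1 and -0.0077 without K36M 3, and was -0.0094 with quantile normalization and -0.0043 with median ratio rescaling. Itga4 ranged from -0.029 (without K36M 3) to 0.31, Itgal from -0.30 to 0.056 (without rtTA 3), and Vcam1 from -0.34 (without rtTA 1) to 0.85, with -0.17 without K36M 3. In K36M against K9M, Itgal ranged from -0.21 to 0.080 (without K36M 2), with 0.069 without K9M 3 and 0.021 without K36M 1. The Itgal to Itgb2 ratio in K9M against rtTA ranged from -0.20 (without rtTA 3) to 0.20, with -0.063 without K9M 3. Chosen after seeing the data, the same-numbered pairing of the chain ratios gave exact sign-flip p of 0.25 to 1.0. In it, Itga4 to Itgb1 was lower in K9M than rtTA in 3 of 3 pairs (-0.27, -0.63 and -0.41). Same-numbered K9M and rtTA libraries were little correlated (0.017 to 0.162), as were those of K36M and K9M (-0.171 to 0.074). Results of the replicate block that involve K9M carry this limit. The list entries called, also counted after seeing the data, ranged over the alternatives from 0 to 3, 0 to 7 and 0 to 15 in the 3 comparisons, with 15 in K36M against K9M under the replicate block, and 1 in K9M against rtTA, Rgs2 (limma adjusted p = 0.0316). Counts of genes called over the whole table moved more. For K9M against rtTA, 15 became 4 with no filter, 8 with quantile normalization and 6 (without K9M 2) to 36 (without rtTA 1) with 1 library left out. For K36M against rtTA, 194 became 76 with no filter, 301 with the replicate block, 25 with only the 2 groups compared and 10 (without K36M 1) to 402 (without K36M 2) with 1 library left out. For K36M against K9M, 326 became 118 with no filter, 595 with the replicate block and 15 (without K36M 3) to 509 (without K36M 2) with 1 library left out. Depth limits Vcam1 in rtTA 1 most, at about 55 reads.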

Other observations

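Libraries of different groups that share a number also shared the position of their highest value for 4 of the 10 receptors. Cxcr4 was highest in library 2 of each group, Itga6 in library 1 and Itga4 and Itgal in library 3. Of all tested genes, 23.8% were highest in the same number in all 3 groups, and 6.71% were highest in library 3 of each. The labels give no meaning to the number beyond the replicate.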
